A study of Homo sapiens with 8 samples.

Results

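Keratins are the intermediate filament proteins of epithelia. Each filament pairs a type I keratin with a type II keratin, and the pair in use changes with the layer and state of the epithelium. Basal cells of squamous epithelia are built on KRT5 with KRT14, and KRT15 marks a subset of basal cells. Wounded, inflamed or rapidly dividing squamous cells carry KRT6A and KRT6B with KRT16 and KRT17, and the pair KRT8 with KRT18, together with KRT19, is typical of simple (single-layered) epithelia. KRT19 is also seen in basal cells of moist mucosa. The 10 genes described here were taken by name from the deposited count table, which lists 58735 genes: 3 basal keratins, 4 stress keratins and 3 simple keratins. All 10 had enough reads to be tested, among 15135 genes tested in all.

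RNA was sequenced from EPC2-hTERT, a human esophageal epithelial line immortalised with telomerase. The miR-155OE group comprised 4 libraries of a stable line made with a lentivirus that overexpresses miR-155-5p, a microRNA of immune and inflamed tissue, and the CTRL group comprised 4 libraries of control cells. Both groups were grown on inserts with 0.4 µm pores, with 2 days in growth medium before calcium was raised to 1.8 mM for 5 days, and ended at the air-liquid interface, where such cells stratify. The labels do not say what construct the control cells carry, whether the miR-155OE line is 1 clone, or how long the cells stayed at the interface.

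Library totals ran from 33443635 to 40589679 counts in miR-155OE and from 34131130 to 52746852 counts in CTRL. Mitochondrially encoded genes took 1.01 to 2.92% of them in miR-155OE and 1.23 to 2.78% in CTRL. Replicate numbers 1 to 4 come from the labels, which do not call them separate cultures, so p-values measure the spread between these libraries, which may be technical. MIR155 and its host transcript MIR155HG had 0 reads in all 8 libraries; libraries of this kind do not capture mature microRNAs, so these counts do not check the overexpression. Libraries of the same group differed by a chi-square of 15.8 to 83.1 per degree of freedom, so none looked like a repeat of another. The 8 markers of esophageal squamous epithelium, KRT5 and KRT14 among them, were all detected. Their levels summed to 27694 to 32472 CPM in miR-155OE and 28079 to 32603 CPM in CTRL. CPM are counts scaled to a common library size, with that size adjusted for composition. The sum does not speak for each marker. KRT4, of the same list, averaged 17.3 ± 20.8 CPM in miR-155OE and 95.4 ± 29.2 CPM in CTRL. KRT13, also of that list, averaged 2.96 ± 3.58 CPM in miR-155OE and 11.4 ± 6.32 CPM in CTRL (SD, n = 4 each). Of 6 mesenchymal markers COL1A2, COL3A1, DCN and LUM had 0 reads in all libraries, while COL1A1 reached 7357 reads in a library and took the list's sum to 98.1 to 221 CPM in miR-155OE and 92.8 to 145 CPM in CTRL. Immune markers summed to at most 15.1 CPM, endothelial markers to at most 2.41 CPM, and melanocyte, Merkel and neural markers to at most 2.60 CPM in any library.

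The overexpressed microRNA is shown first because its seed, bases 2 to 8, here in capitals, sets which transcripts could pair with it (RefSeq, GRCh38.p14, chr21:25573983-25574006, plus strand).
hsa-miR-155-5p: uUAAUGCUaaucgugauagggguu

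Matches to that seed (AGCATTA, or its last 6 bases followed by A, in the sense strand) were sought in the longest 3′ UTR that each keratin has in GENCODE 29; these are 126 to 2190 bases long. KRT6A was the only member with a match, 1 of 10, where 18.6% of the 12532 tested genes with an annotated 3′ UTR had at least 1. The comparison was not matched for UTR length, on which the number of possible matches depends. The matched stretch of KRT6A is printed with the match in capitals (GENCODE 29 on GRCh38, chr12:52487410-52487438, minus strand).
KRT6A site: ctctgaggctgAGCATTAtaagaaaatga

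A match is a description of the letters and not a measured binding site. Several of the genes are near copies of each other, which bears on how far their counts can be told apart. The coding sequences of KRT6A and KRT6B were identical at 97.5% of 1695 bases, and KRT6C, a further stress keratin of the same cluster, matched KRT6A at 97.9% and KRT6B at 98.5%. The 60 coding bases in exon 2 where KRT6A and KRT6B differ most are printed with the bases that are not shared by all 3 genes in capitals (coding positions 663 to 722, minus strand of chromosome 12, GRCh38: KRT6A at chr12:52491555-52491614, KRT6B at chr12:52450439-52450498 and KRT6C at chr12:52472099-52472158).
KRT6A: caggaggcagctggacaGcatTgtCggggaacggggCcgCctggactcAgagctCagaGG
KRT6B: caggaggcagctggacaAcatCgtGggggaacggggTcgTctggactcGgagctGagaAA
KRT6C: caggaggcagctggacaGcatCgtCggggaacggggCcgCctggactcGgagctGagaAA

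KRT6A and KRT6B differed at 9 of these 60 bases, and a read over such a stretch can be placed. Elsewhere 18.2% of the 100-base windows of the KRT6A transcript and 24.6% of those of KRT6B also occurred in another gene, mainly KRT6C or the other of the pair. The share was 7.18% for KRT16 and 5.95% for KRT14, which share windows with each other, 7.56% for KRT8, which shares them with its pseudogenes, 1.44% for KRT5 and 0.322% for KRT17, and no window of KRT15, KRT18 or KRT19 was shared. With windows of 150 bases the share was 9.25% for KRT6A, 12.8% for KRT6B, 0.736% for KRT16, 0.595% for KRT14 and 0 for the other 6 keratins. The read length is not given in the sources used here, and how reads with several matches were counted is not stated, so the split between KRT6A, KRT6B and KRT6C is uncertain. KRT8 and KRT18 lie side by side on chromosome 12 and overlap by 1084 bases on opposite strands. No source says that strand was used in counting, and reads from that stretch could count for either gene.

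The stress keratins made up most of the keratin RNA in both groups. The 10 genes together took 10.3 ± 1.17% of all counts in miR-155OE and 11.3 ± 0.973% in CTRL (SD, n = 4 each). Of this the stress keratins took 8.52 ± 0.927% in miR-155OE and 9.37 ± 0.731% in CTRL, the basal keratins 1.74 ± 0.286% in miR-155OE and 1.89 ± 0.252% in CTRL, and the simple keratins 0.0163 ± 0.00830% in miR-155OE and 0.0241 ± 0.00782% in CTRL (SD, n = 4 each). All keratin genes together took 12.1 ± 1.06% in miR-155OE and 12.2 ± 0.785% in CTRL (SD, n = 4 each). Each of these ranges overlapped between the groups.

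Levels of different genes were compared per kilobase of the deposited gene length, which for 99.98% of genes equals the union of the exons in GENCODE 29. On that scale the order in CTRL was KRT6A, KRT16, KRT17, KRT14, KRT6B, KRT5, KRT19, KRT15, KRT18 and KRT8. KRT6A averaged 10640.1 ± 1211 CPM per kb in miR-155OE and 12377 ± 914 CPM per kb in CTRL, and KRT8, the lowest, averaged 1.84 ± 0.420 CPM per kb in miR-155OE and 2.31 ± 0.420 CPM per kb in CTRL (SD, n = 4 each). The order fell into an upper tier (KRT6A, KRT16 and KRT17), a middle tier (KRT14, KRT6B and KRT5) and a low tier of the other 4. KRT17 stood above KRT14 in every library, by 2.46 times in miR-155OE and 2.57 times in CTRL over the group means. KRT5 averaged 2242 ± 317 CPM per kb in miR-155OE and 2548 ± 243 CPM per kb in CTRL and stood above KRT19 in every library, which averaged 51.5 ± 31.5 CPM per kb in miR-155OE and 82.2 ± 32.1 CPM per kb in CTRL (SD, n = 4 each). Neighbours within the upper and middle tiers overlapped in range, except KRT6A above KRT16 in CTRL. Scaled instead to the length of the main coding transcript, KRT17 came first, at 15521 CPM per kb in miR-155OE and 16765 CPM per kb in CTRL, KRT5 came above KRT6B, and the tiers held the same genes.

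The study's question for these cultures was what miR-155-5p overexpression does to epithelial biology and the barrier. None of the 10 keratins passed edgeR's quasi-likelihood test fitted on group alone, where 488 of 15135 genes (3.22%) passed and 159 (1.05%) fell. None of the 10 had an unadjusted p under 0.05 either, against 19.3% of all genes tested. DESeq2 and limma's voom fit called 0 of the 10, as did the authors' deposited table, in which 1208 of 25529 genes pass. The direction was nonetheless uneven: 9 of the 10 log2 fold changes were below 0, with a median of -0.20. Over all genes tested 51.3% were below 0, with a median of -0.01. The 10 keratins come from the same 8 libraries and several vary together across them, so they are not 10 separate observations. The groups overlapped for all 10 keratins, while 11.4% of all genes tested had groups that did not overlap.

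**Figure D1:**
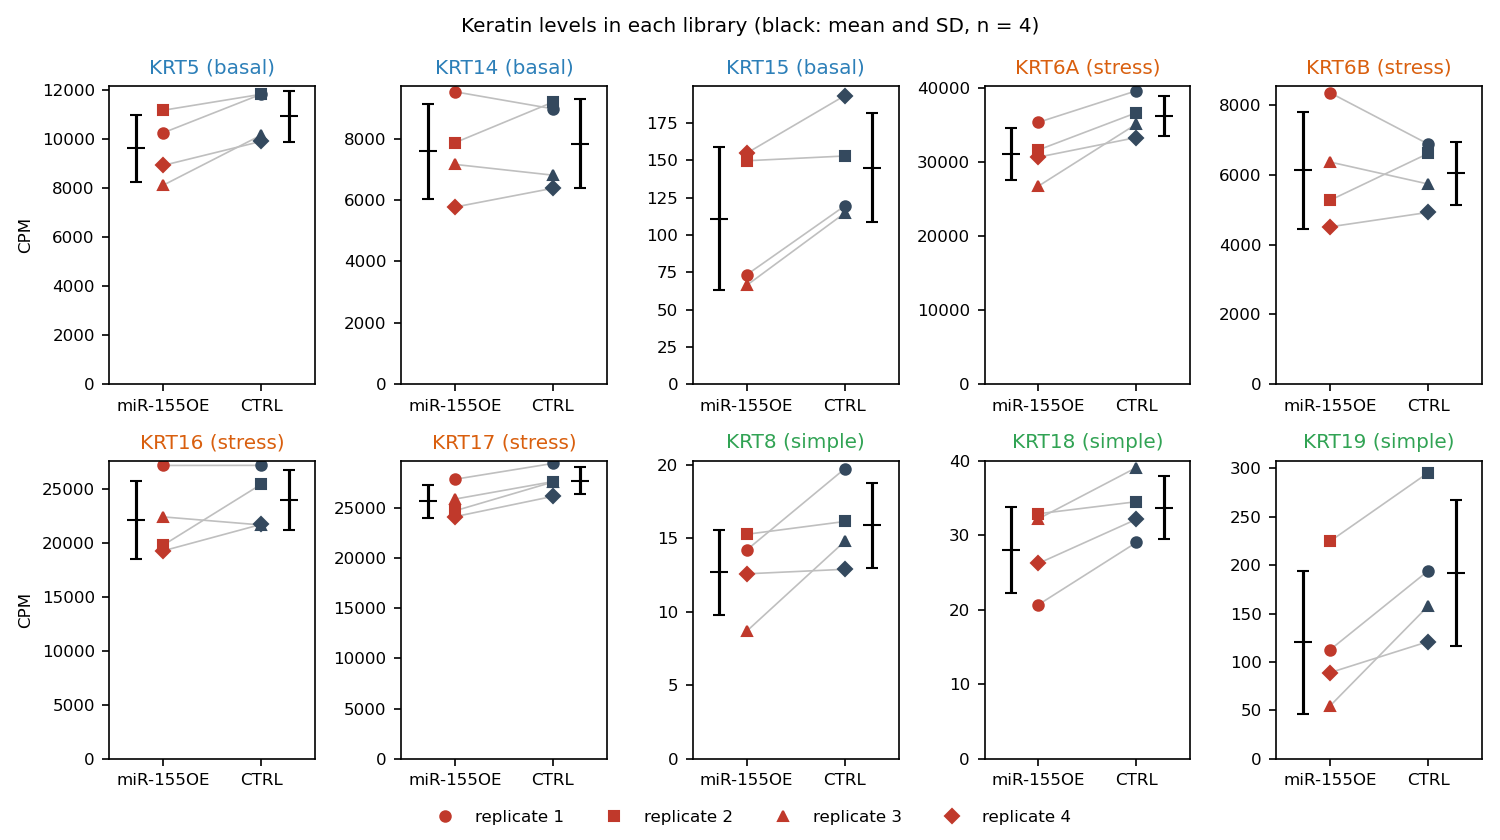
CPM of each keratin (vertical axis, from 0) in each library, with miR-155OE left of CTRL. Marker shapes give the replicate number, grey lines join libraries with the same number, and black bars give the group mean and SD (n = 4). KRT19 runs from 54.8 to 225 CPM in miR-155OE and from 121 to 295 CPM in CTRL, and every line of KRT19 is lower at its miR-155OE end.

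Libraries with the same number deviated together from their group means, least for number 3, where CTRL replicate 4 matched miR-155OE replicate 3 better. The likeness was not by number alone, as numbers 1 and 2 also went together across the groups, and so did 3 and 4. Because same-numbered libraries went together, the fit was also made with the replicate number as a block. In that fit 3 of the 10 keratins passed, all lower in miR-155OE: KRT15, KRT18 and KRT19. Over all genes tested 1908 (12.6%) passed it and 783 (5.17%) fell. KRT5, KRT6A and KRT8 had an unadjusted edgeR p of 0.0328, 0.0289 and 0.0213 with the block and did not pass after adjustment. In all, 7 of the 10 keratins were lower in miR-155OE in all 4 same-numbered pairs, as were 16.9% of all genes tested. These 7 are likewise not separate observations.

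**Figure D2:**
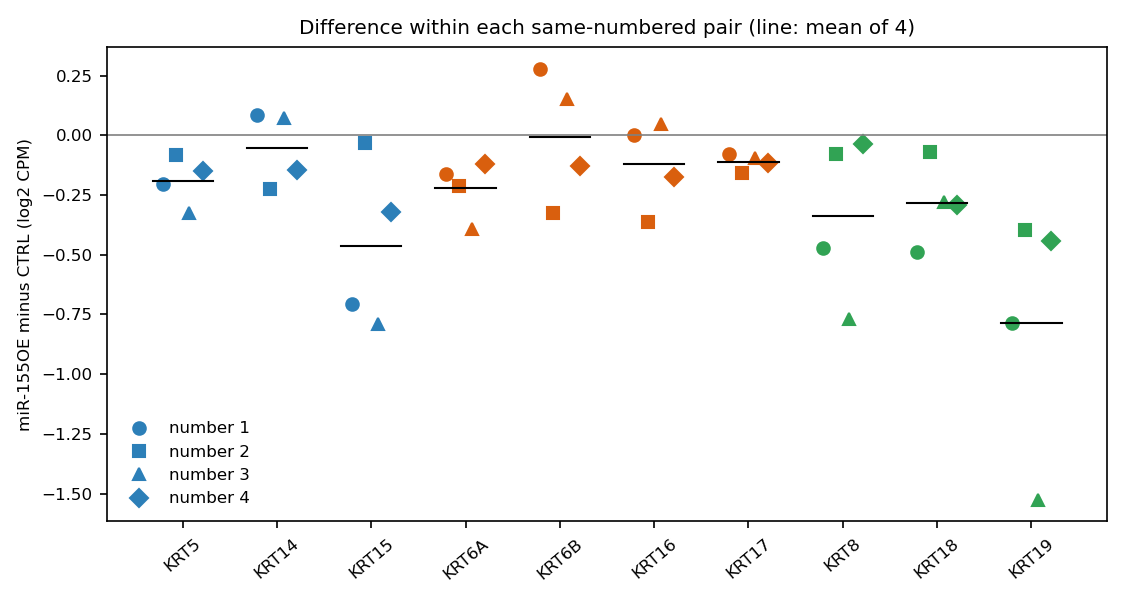
Difference in log2 CPM between the miR-155OE and the CTRL library of each number, by gene, with marker shapes for the numbers and a line at the mean of the 4. All 4 points lie below 0 for KRT5, KRT15, KRT6A, KRT17, KRT8, KRT18 and KRT19, and KRT14 and KRT6B have 2 points on each side.

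Among the simple keratins, KRT19 (ENSG00000171345; chromosome 17, 41523617 to 41528308), the smallest type I keratin and a partner of KRT8, had the largest difference of the 10. It had 113, 225, 54.8 and 89.0 CPM in miR-155OE replicates 1 to 4, against 194, 295, 158 and 121 CPM in CTRL replicates 1 to 4. Replicate 2 was the highest of its group in both, and the groups overlapped because miR-155OE replicate 2 lay above 3 of the CTRL libraries. On the log2 scale KRT19 differed by -0.67 on group alone (SE 0.39, edgeR adjusted p = 0.390) and by -0.78 with the replicate block (SE 0.16, edgeR adjusted p = 0.0146), and within pairs KRT19 was lower by 0.39 to 1.53 on the log2 scale. Without miR-155OE replicate 2 the fit on group alone gave -1.17 (edgeR adjusted p = 0.0454), and without CTRL replicate 2 it gave -0.39 (edgeR adjusted p = 0.707). The blocked call was kept without pair 2, 3 or 4 and lost without pair 1 (-0.78, edgeR adjusted p = 0.0726).

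KRT18 (ENSG00000111057; chromosome 12, 52948871 to 52952901), the type I partner of KRT8, had 20.7, 32.9, 32.2 and 26.2 CPM in miR-155OE replicates 1 to 4, against 29.1, 34.5, 39.1 and 32.2 CPM in CTRL replicates 1 to 4. The lowest level was in miR-155OE replicate 1, and the highest miR-155OE libraries lay among the CTRL ones. The difference on the log2 scale was -0.27 on group alone (SE 0.15, edgeR adjusted p = 0.359) and -0.28 with the replicate block (SE 0.07, edgeR adjusted p = 0.0398). The blocked call was lost without pair 1, 3 or 4 (edgeR adjusted p = 0.208, 0.0738 and 0.127).

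KRT8 (ENSG00000170421; chromosome 12, 52897187 to 52949954) had 14.2, 15.3, 8.69 and 12.6 CPM in miR-155OE replicates 1 to 4, against 19.7, 16.2, 14.8 and 12.9 CPM in CTRL replicates 1 to 4. It was lower in all 4 pairs, by as little as 0.03 in pair 4 and as much as 0.77 in pair 3 on the log2 scale. It passed neither fit (log2 fold change -0.32, SE 0.18, edgeR adjusted p = 0.365 on group alone; -0.34, SE 0.12, edgeR adjusted p = 0.104 with the block). KRT8 pseudogenes held 9.30 to 25.4% as many reads as KRT8 itself, and reads of such copies may be split between them. These are bulk libraries, in which fewer cells that carry a keratin and less of its RNA per cell cannot be told apart.

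Among the basal keratins, KRT15 (ENSG00000171346; chromosome 17, 41513743 to 41522529), a type I keratin of basal and stem-like cells, had 73.3, 149.7, 66.2 and 154.8 CPM in miR-155OE replicates 1 to 4, against 119, 153, 115 and 193 CPM in CTRL replicates 1 to 4. Replicates 2 and 4 were the higher ones in both groups, and the miR-155OE libraries 2 and 4 lay within the CTRL range. On the log2 scale the difference was -0.39 on group alone (SE 0.28, edgeR adjusted p = 0.508) and -0.46 with the replicate block (SE 0.11, edgeR adjusted p = 0.0292). The blocked call was lost without pair 1, 3 or 4 (edgeR adjusted p = 0.157, 0.0666 and 0.0782).

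KRT5 (ENSG00000186081; chromosome 12, 52514575 to 52520687), the type II basal keratin, had 10258, 11178, 8119.8 and 8927 CPM in miR-155OE replicates 1 to 4, against 11832, 11831, 10164 and 9910.1 CPM in CTRL replicates 1 to 4. It was lower within all 4 pairs, by 0.08 to 0.32 on the log2 scale, and passed neither fit (log2 fold change -0.18, SE 0.12, edgeR adjusted p = 0.458 on group alone; -0.19, SE 0.08, edgeR adjusted p = 0.136 with the block). Its partner KRT14 (ENSG00000186847; chromosome 17, 41582279 to 41586921) had 9526, 7867, 7159.6 and 5769.9 CPM in miR-155OE replicates 1 to 4, against 8971, 9189, 6809 and 6382 CPM in CTRL replicates 1 to 4. In both groups replicates 1 and 2 were higher than replicates 3 and 4, and the sign of the difference changed from pair to pair. The log2 fold change of KRT14 was -0.05, with a 95% interval of -0.43 to 0.33 on group alone and of -0.24 to 0.13 with the block (edgeR adjusted p = 0.914 and 0.731), and it turned above 0 without miR-155OE replicate 4 (0.07), CTRL replicate 1 (0.03) or CTRL replicate 2 (0.04). The ratio of KRT5 to KRT14 per length was 0.688 ± 0.120 in miR-155OE and 0.751 ± 0.0689 in CTRL (SD, n = 4 each).

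Among the stress keratins, KRT6A (ENSG00000205420; chromosome 12, 52487174 to 52493257), a type II keratin of wound edges that is also constitutive in esophageal epithelium, had the highest level of the 10 per deposited gene length. It had 35424, 31686, 26794 and 30712 CPM in miR-155OE replicates 1 to 4, against 39689.5, 36718, 35186 and 33366 CPM in CTRL replicates 1 to 4. Only miR-155OE replicate 1 lay within the CTRL range. KRT6A was lower in all 4 pairs and passed neither fit (log2 fold change -0.22, SE 0.11, edgeR adjusted p = 0.336 on group alone; -0.22, SE 0.09, edgeR adjusted p = 0.126 with the block). It is the member with the seed match printed above, and whether that match bears on its level was not tested.

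KRT6B (ENSG00000185479; chromosome 12, 52446651 to 52452126) had 8356, 5274, 6369.7 and 4512 CPM in miR-155OE replicates 1 to 4, against 6887, 6616, 5739.7 and 4926 CPM in CTRL replicates 1 to 4. It was higher in pairs 1 and 3 and lower in pairs 2 and 4, and its log2 fold change was 0.02 on group alone (95% interval -0.39 to 0.43, edgeR adjusted p = 0.967) and -0.01 with the block. The same order of pairs held for KRT6C (log2 fold change 0.08, edgeR adjusted p = 0.845, and -0.09 without miR-155OE replicate 1), which was lower in 2 of 4 pairs. With KRT6A, KRT6B and KRT6C summed into 1 count the log2 fold change was -0.17 (edgeR adjusted p = 0.490). KRT6A had 4.21 to 6.81 times as many reads as KRT6B across the miR-155OE libraries and 5.55 to 6.77 times across the CTRL libraries.

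KRT16 (ENSG00000186832; chromosome 17, 41609778 to 41615899), the type I partner of the KRT6 proteins, had 27179.6, 19796, 22414 and 19270.0 CPM in miR-155OE replicates 1 to 4, against 27188, 25434, 21665 and 21721 CPM in CTRL replicates 1 to 4. Its log2 fold change was -0.11 (SE 0.14, edgeR adjusted p = 0.706), and -0.12 with the block (SE 0.09, edgeR adjusted p = 0.442). KRT17 (ENSG00000128422; chromosome 17, 41619441 to 41624842), a type I keratin of wounds and skin appendages, had 27835, 24695, 25862 and 24110.4 CPM in miR-155OE replicates 1 to 4, against 29413, 27563, 27605 and 26136 CPM in CTRL replicates 1 to 4. KRT17 was lower in all 4 pairs by a narrow 0.08 to 0.16 on the log2 scale, and passed neither fit (log2 fold change -0.11, SE 0.10, edgeR adjusted p = 0.578 on group alone; -0.11, SE 0.08, edgeR adjusted p = 0.391 with the block). Of the 4 stress keratins, 0 rose and 0 fell in either fit. Over all genes tested 3.22% passed on group alone and 12.6% with the block, so 0 of 4 does not set this class apart. The 95% intervals of the 4 on group alone ran no lower than -0.47 and no higher than 0.43.

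**Figure D3:**
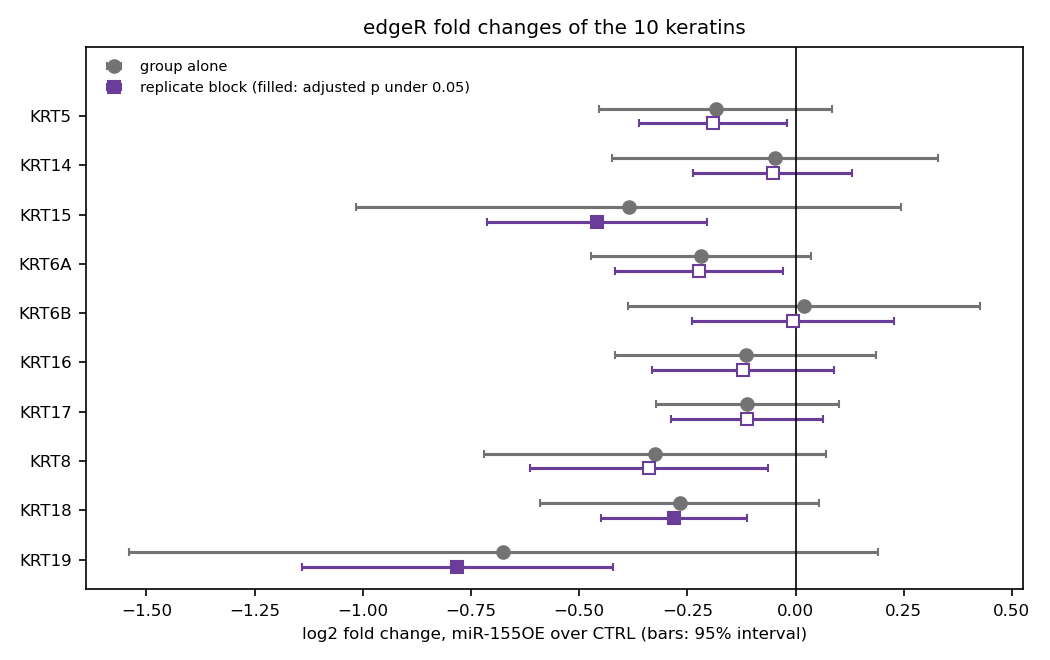
Log2 fold change of each keratin, miR-155OE over CTRL, with 95% intervals, from the edgeR fit on group alone (grey circles) and with the replicate block (purple squares, filled where the adjusted p is under 0.05). All intervals on group alone cross 0, and KRT15, KRT18 and KRT19 are the filled squares. With the block the intervals of KRT5, KRT6A and KRT8 also lie below 0, with open squares.

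Replicate number and group each took a share of the spread between libraries. Of the sum of squares of log2 CPM over the 8 libraries, with 3 degrees of freedom for the number and 1 for the group, the number held 91.5% for KRT14, 80.9% for KRT6B, 70.5% for KRT15 and 69.2% for KRT16. For KRT6A the number held 43.9% and the group 46.0%. The group held 38.9% for KRT17, 29.1% for KRT18, 28.96% for KRT19, 28.4% for KRT5, 27.97% for KRT8 and 0.0128% for KRT6B. The median share of the number was 64.2% over the 10 keratins and 48.2% over all genes tested, and that of the group was 28.2% and 17.1%. Per degree of freedom the group's share was the larger for 6 of the 10 keratins (KRT5, KRT6A, KRT17, KRT8, KRT18 and KRT19), as for 50.7% of all genes tested. The numbers' meaning is not stated in the labels, and what they share was not tested.

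**Figure D4:**
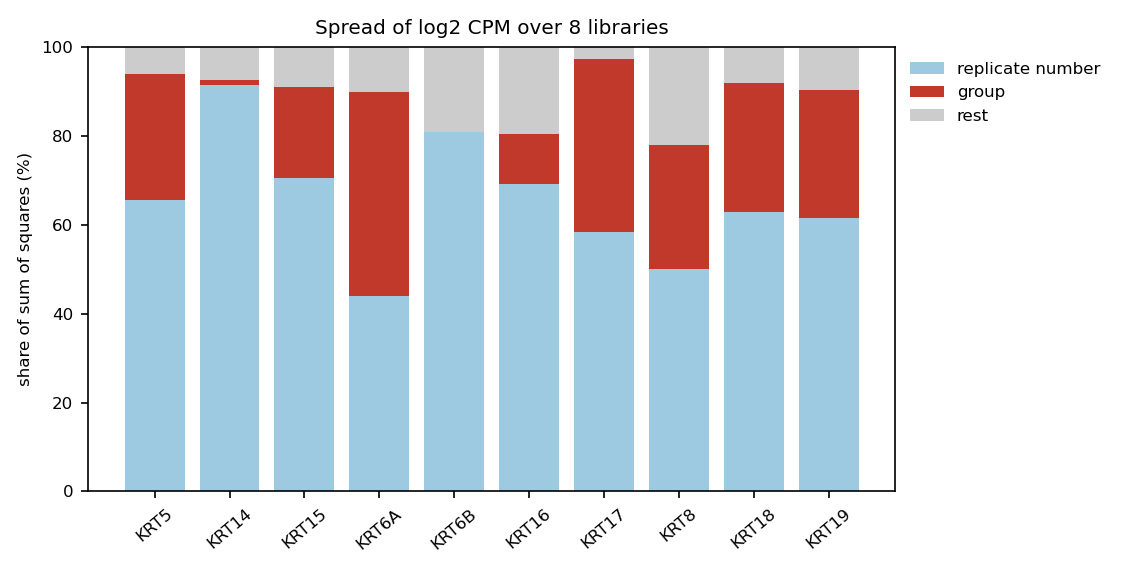
Share of the sum of squares of log2 CPM over the 8 libraries held by the replicate number, by the group and by neither (stacked bars, percent), for each keratin, with 3 degrees of freedom for the number and 1 for the group. The number's share is highest for KRT14 at 91.5%, and the group's share is highest for KRT6A at 46.0%.

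Across the 8 libraries the keratins did not sort fully by class, although the stress keratins KRT6B, KRT16 and KRT17 went together. KRT5 went with KRT19 (Pearson r = 0.95 of log2 CPM), KRT8 (0.93) and KRT6A (0.86), and KRT14 went with KRT6B (0.88) and KRT16 (0.84), which itself went with KRT6B (0.90) and KRT17 (0.89). The basal pair KRT5 and KRT14 reached 0.66, and KRT8 with its partner KRT18 reached 0.00. KRT15 ran against KRT6B (-0.70). The 8 points share 4 replicate numbers and 1 scaling factor per library, KRT14 and KRT16 share some 100-base windows, and these values are descriptions without a test.

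**Figure D5:**
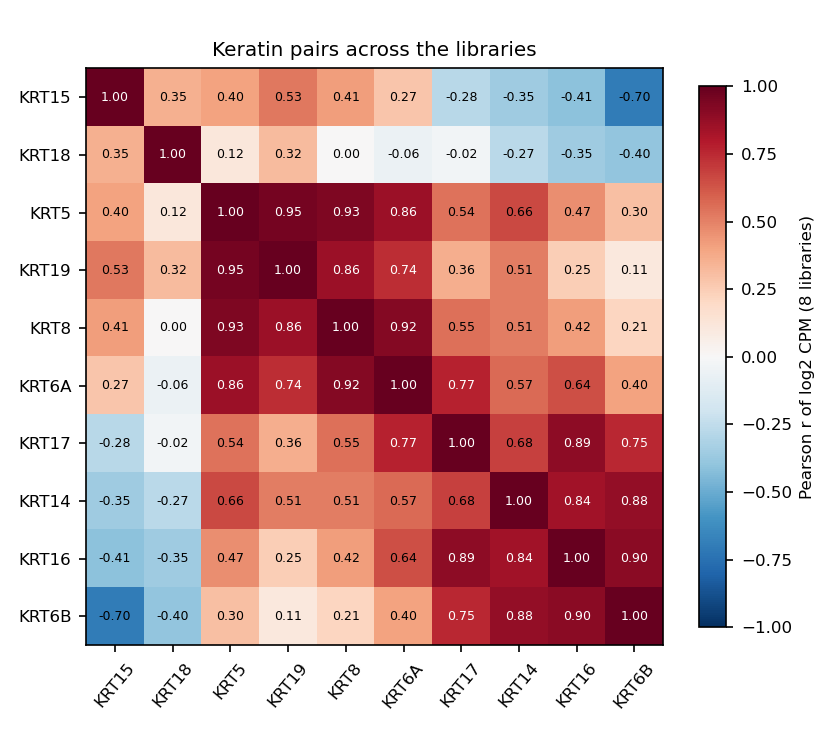
Pearson r of log2 CPM over the 8 libraries for each pair of keratins, from blue (negative) to red (positive). KRT5, KRT19, KRT8 and KRT6A form a block with r of 0.74 to 0.95. KRT17, KRT14, KRT16 and KRT6B form another with r of 0.68 to 0.90, and KRT18 and KRT15 stand outside both. The blocks are not separate, as KRT6A and KRT17 reach 0.77.

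The genes most like the member of each class with the highest mean CPM, not scaled for length (KRT5, KRT6A and KRT19), were sought among 8370 genes outside the keratins with a mean of at least 10 CPM, over the 8 libraries. For KRT5 they were PARP4 (r = 0.99), DSG3, a desmosomal cadherin of the lower layers (0.99), and PBXIP1 (0.99). For KRT6A they were HLA-C, an MHC class I chain (0.99), SHROOM2 (0.96) and CXXC5 (0.96), and for KRT19 they were GPRC5A (0.99), ARAP1 (0.99) and GLMP (0.98). None of these 9 genes passed the test on group alone (edgeR adjusted p = 0.141 to 0.493). With the replicate block 5 of the 9 fell, CXXC5, HLA-C, PBXIP1, GPRC5A and PARP4 (edgeR adjusted p = 0.00881 to 0.0314). Over all genes tested 5.17% fell in that fit. The 9 were picked for following KRT5, KRT6A or KRT19 across both groups, and those keratins were lower in all 4 pairs. The count of 5 therefore follows in part from how the genes were picked and is not separate evidence.

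Calls on group alone were found among the other keratin genes. Of 45 other protein-coding keratins listed, 23 were tested. On group alone 1 rose, 1 fell and 21 did not pass, where 3.22% of all genes tested passed. KRT1, the type II keratin of suprabasal epidermal cells, rose by 2.73 on the log2 scale (SE 0.39; edgeR adjusted p = 0.00685), whereas KRT78, a type II keratin of stratified mucosa, fell (-0.68, SE 0.16, edgeR adjusted p = 0.0462), a call lost without any single library other than miR-155OE replicate 2 (highest edgeR adjusted p = 0.127). With the block 8 of the 23 passed, where 12.6% of all genes tested did: 5 rose, among them KRT10, the partner of KRT1 (1.06, SE 0.18, edgeR adjusted p = 0.00687, against 0.251 on group alone), and 3 fell. The 3 that fell were KRT78, KRT4 (-3.00, edgeR adjusted p = 0.00696) and KRT13 (-2.27, edgeR adjusted p = 0.0185). KRT4 and KRT13 did not pass on group alone (edgeR adjusted p = 0.0745 and 0.181). KRT80 did not pass (0.17, edgeR adjusted p = 0.480). KRT1 had 6336 ± 2846 CPM in miR-155OE and 952 ± 400.1 CPM in CTRL, and KRT10 had 7417 ± 3791 CPM in miR-155OE and 3628 ± 2256 CPM in CTRL (SD, n = 4 each).

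Of 15 tested genes of the basal layer (matrix, adhesion and hemidesmosome genes, the transcription factor TP63 and the surface or membrane proteins CDH3, CD44, CAV1 and BCAM), 0 rose and 0 fell on group alone, where 3.22% of all genes tested passed. Of the 15, 11 were below 0 and the median log2 fold change was -0.15. With the block, in which 5.17% of all genes tested fell, 5 of the 15 fell and 0 rose, and those that fell included COL7A1, the anchoring fibril collagen (-0.44), CAV1, the coat protein of caveolae (-0.41), and the laminin chains LAMA3 (-0.54) and LAMB3 (-0.49). For these 4 genes the edgeR adjusted p with the block was 0.00413 to 0.0224, and on group alone 0.0733 to 0.365.

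Of 16 tested partners of keratin filaments (plakins, desmosomal plaque proteins, chaperones), 0 passed on group alone, where 3.22% of all genes tested passed. With the block 2 rose and 1 fell, 3 of 16 where 12.6% of all genes tested passed. This count is close to that share. EPPK1 (epiplakin), which binds keratin filaments, differed by 0.77 on the log2 scale on group alone (edgeR adjusted p = 0.0522) and rose with the block (0.74, edgeR adjusted p = 0.0323). PPL, the cornified envelope plakin periplakin, fell with the block (-0.32, edgeR adjusted p = 0.0403), and PKP2, a desmosomal plaque protein, passed neither fit (-0.36, edgeR adjusted p = 0.111 on group alone).

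Genes that accompany stress keratins in wounds and hyperproliferative epithelium moved both ways. Of 21 tested, 0 passed on group alone and their median log2 fold change was -0.01. With the block 7 of the 21 passed, where 12.6% of all genes tested did. Of the 7, 5 rose, among them IL36G, an epithelial cytokine (1.45, edgeR adjusted p = 0.00497), and the antimicrobial S100A7 (0.91, edgeR adjusted p = 0.00362). The 2 that fell were IL1A (-0.63, edgeR adjusted p = 0.0159) and the EGFR ligand AREG (-0.45, edgeR adjusted p = 0.0184). Other EGFR ligands of the list, HBEGF (0.27, edgeR adjusted p = 0.0172) and EREG (0.31, edgeR adjusted p = 0.0338), rose with the block. TGFA, a further EGFR ligand, did not pass (-0.16, edgeR adjusted p = 0.174). Of 10 tested genes of the NRF2 antioxidant pathway, GCLM, a subunit of the enzyme that starts glutathione synthesis, rose (0.50, SE 0.11, edgeR adjusted p = 0.0367) and 9 did not pass on group alone. The call of GCLM was lost without any single library other than miR-155OE replicate 2 (highest edgeR adjusted p = 0.111). With the block 2 of the 10 rose and 0 fell, again where 12.6% of all genes tested passed, GCLM among them (0.49, edgeR adjusted p = 0.0188), while GCLC passed neither fit (0.26, edgeR adjusted p = 0.124 on group alone).

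Of 14 other genes of simple and columnar epithelium listed, 5 had enough reads to be tested and 0 passed in either fit. Over all genes tested 3.22% passed on group alone and 12.6% with the block, so 0 calls among so few genes does not set a list apart. SOX9, a transcription factor of progenitor cells, had the highest level of the 5 in CPM, with 90.9 ± 17.4 CPM in miR-155OE and 91.04 ± 11.3 CPM in CTRL (SD, n = 4 each). EPCAM, a surface protein of simple epithelia, had 1.17 ± 0.446 CPM in miR-155OE and 1.81 ± 0.511 CPM in CTRL, and GATA6, a transcription factor of the gut, had 3.68 ± 0.162 CPM in miR-155OE and 4.94 ± 0.742 CPM in CTRL (SD, n = 4 each; log2 fold change -0.63 and -0.43, edgeR adjusted p = 0.295 and 0.113 on group alone). MUC1 stayed under 1 CPM on average in each group (log2 fold change -0.14, edgeR adjusted p = 0.928). Of 10 proliferation genes 6 were tested and 0 passed in either fit, the lowest p belonging to the replication licensing gene MCM2 (0.49, edgeR adjusted p = 0.165 on group alone), with CCNA2 at -0.59 and MCM3 at -0.11.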

How the data were processed

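RNA-seq was measured in 8 libraries, 4 miR-155OE and 4 CTRL. The deposited counts are whole numbers of reads per Ensembl gene, per the file headers; HISAT2 2.0.5, featureCounts 1.5.0-p3, DESeq2 and GRCh38 are named in the submitters' processing notes, with no strand setting. The authors' deposited comparison gives a log2 fold change (OE over CTRL) and an adjusted p-value per gene, per the file headers; its 10 columns of normalised values per library or group were not used.

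The tests used edgeR 4.0.16 under R 4.3.3 (low counts removed by filterByExpr, TMM scaling, quasi-likelihood F test, Benjamini-Hochberg at 0.05 over 15135 genes). CPM use TMM-scaled library sizes, and log2 CPM and within-pair differences add 0.5 reads. SEs and 95% intervals derive from the fold change and its F statistic, so they restate the test. DESeq2 1.42.0, limma 3.58.1 (voom), RLE scaling, scaling without keratins, no filter, summed copies, the replicate block and leaving out each library were alternatives; leaving out pairs from the block was chosen after seeing the data. The fits were tested on simulated data. Intervals cover the spread between these libraries only.

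Over 10291 genes of at least 4 mean CPM, deviations of same-numbered libraries from their group means correlated at 0.573, 0.493, 0.181 and 0.603 in the order of the numbers. For number 3 miR-155OE matched CTRL replicate 4 better (0.402). Numbers 1 and 2 also went together across the groups (0.263 and 0.274), as did 3 and 4 (0.402 and 0.204). Correlations of 1 or 2 with 3 or 4 were negative (-0.574 to -0.105). The number was used in the blocked fits, the within-pair differences and the shares of the sum of squares. The main test, on group alone, and the other alternatives did not use it.

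The members and lists were chosen with earlier results of these data known. Named genes were the 10 members and the 5 other keratins of highest CPM. Also named were the 3 genes of lowest p in each list and the 3 most correlated genes per class. KRT4, KRT13, LAMA3, S100A7, HBEGF, EREG, TGFA and SOX9 were chosen after their values were seen. Some genes of these lists are not reported here.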

Additional observations from a re-analysis of the deposited data

How the results depend on the processing

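The number of genes called moved with the method: 488 on group alone, 1908 with the replicate block, 1223 with DESeq2 and 927 with no filter, and 125 to 1274 when 1 library was left out. The number of keratins called was 0 on group alone and 3 with the replicate block; it was 0 to 1 when 1 library was left out of the fit on group alone and 0 to 3 when 1 pair was left out of the blocked fit, by pair 0 without number 1, 3 without number 2 and 1 without number 3 or 4. KRT14 and KRT6B, both near 0, changed sign. KRT6B was -0.0060 with the replicate block, -0.0070 with limma voom, ranged from -0.166 to 0.146 when 1 library was left out (below 0 without miR-155OE replicate 1, CTRL replicate 3 or CTRL replicate 4, at -0.17, -0.0046 and -0.07), and was -0.098 and -0.057 with the block without pair 1 or 3. The summed count of KRT6A, KRT6B and KRT6C, a value of the 3 together and not of KRT6B, gave -0.168. KRT14 ranged from -0.177 to 0.067 when 1 library was left out, at 0.07, 0.03 and 0.04 without miR-155OE replicate 4, CTRL replicate 1 and CTRL replicate 2, and 0.0045 with the block without pair 2. MUC1 ranged from -1.19 to 0.16 (above 0 without miR-155OE replicate 1, 3 or 4) and KRT6C from -0.085 to 0.198 (below 0 without miR-155OE replicate 1). The other 8 keratins were below 0 under each alternative run. With 4 libraries a group, the small differences of the abundant keratins did not pass on group alone. The smallest difference that this design could detect was not estimated. The causes of the changes between settings were not tested.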
